A study of Sus scrofa with 10 samples.

Results

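The comparison described here sets the blood transcriptome of the suckling period against that of the late period of pig development. All 10 of the 10 libraries of the series entered it, chosen by the age on their labels: the 6 libraries of D0, D7 and D28 formed the suckling period and the 4 libraries of D180 and Y2 the late period. Each library was made from the whole blood of a different healthy female Qingyu pig, with 2 pigs just after birth (D0), 2 at 7 days (D7), 2 at 28 days (D28), 2 at 180 days (D180) and 2 at 2 years (Y2). The labels call the D28 pigs weaning and the D180 pigs sexually mature. No treatment or genetic alteration is named in the labels, and no pig was sampled at more than 1 age. Total RNA was depleted of ribosomal RNA, libraries were made strand-specific, and the authors deposited 2 tables of FPKM, an expression value normalised for transcript length and library depth, 1 with 12354 mRNAs and 1 with 5946 lncRNAs. The question was which single mRNAs and lncRNAs had all 4 late libraries above, or all 4 below, all 6 suckling libraries.

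Whole blood holds the RNA of several cell lineages at once. Young red cells keep globin, haem synthesis and membrane mRNAs for a short time after they lose their nucleus, whereas mature red cells carry little RNA. White cells add the transcripts of innate defence (granulocytes and monocytes) and of adaptive immunity (T and B lymphocytes), and in mammals the adaptive lymphocyte pools are known to expand after birth. Because FPKM is a share of the library, a fall of a few very abundant transcripts raises the FPKM of all the others.

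The 10 mRNAs with the highest mean FPKM took 86.9% to 90.7% of the summed mRNA FPKM in the suckling libraries, 68.1% and 68.2% at D180, and 83.2% and 84.2% at Y2. HBB, the beta chain of adult haemoglobin, was the highest of them. Each library was therefore divided by its median-of-ratios factor, the median over 11527 mRNAs of the ratio of the library to the geometric mean of all libraries. The factors were 0.437 to 1.00 in the suckling libraries, 2.87 and 3.03 at D180 and 1.599 and 1.589 at Y2. This scaling takes most mRNAs as unchanged. The median difference over all mRNAs (mean of late minus mean of suckling libraries, log2(FPKM + 1) scale) was 0.02 on the scaled values and 1.11 on the deposited values, and over all lncRNAs it was 0.07 and 0.36. With each library divided instead by its mRNA sum without the 10 highest mRNAs, these medians were 0.62 and 0.22. The scaled median of the mRNAs lies near 0 by the way the factor is made. Red cell, lymphocyte, granulocyte and platelet genes were all measured, as labelled for blood. None of the 13 liver and plasma protein genes on the list used here was found by symbol. Only 9741 of the 12354 mRNAs have a symbol, and blood cell genes such as S100A9, PF4 and CD3G were not found either. Absence by symbol is therefore not absence of expression.

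On the scaled values, 977 mRNAs (7.91% of 12354) had all 4 late libraries above all 6 suckling libraries, and 1507 (12.2%) had all 4 below. On the deposited values, 8764 mRNAs (70.9%) were above and 187 (1.51%) were below. The late factors all exceed the suckling factors, so every mRNA that was higher on the scaled values was also higher on the deposited ones, and every mRNA that was lower on the deposited values was also lower on the scaled ones. Of the 1507 mRNAs that were lower on the scaled values, 187 were lower, 910 overlapped and 410 were higher on the deposited values. The linear model of limma, at an adjusted p of at most 0.05, called 837 mRNAs higher (6.78%) and 1378 lower (11.2%) on the scaled values, against 10788 higher (87.3%) and 259 lower (2.10%) on the deposited values. Of the mRNAs that separated the periods on the scaled values, 693 of the 977 and 1228 of the 1507 were also called. With 1 D180 or 1 Y2 library left out, limma called 478 and 849 mRNAs (without D180 pig 1), 479 and 792 (without D180 pig 2), 456 and 899 (without Y2 pig 1) or 443 and 864 (without Y2 pig 2), higher and lower respectively.

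**Figure D1:**
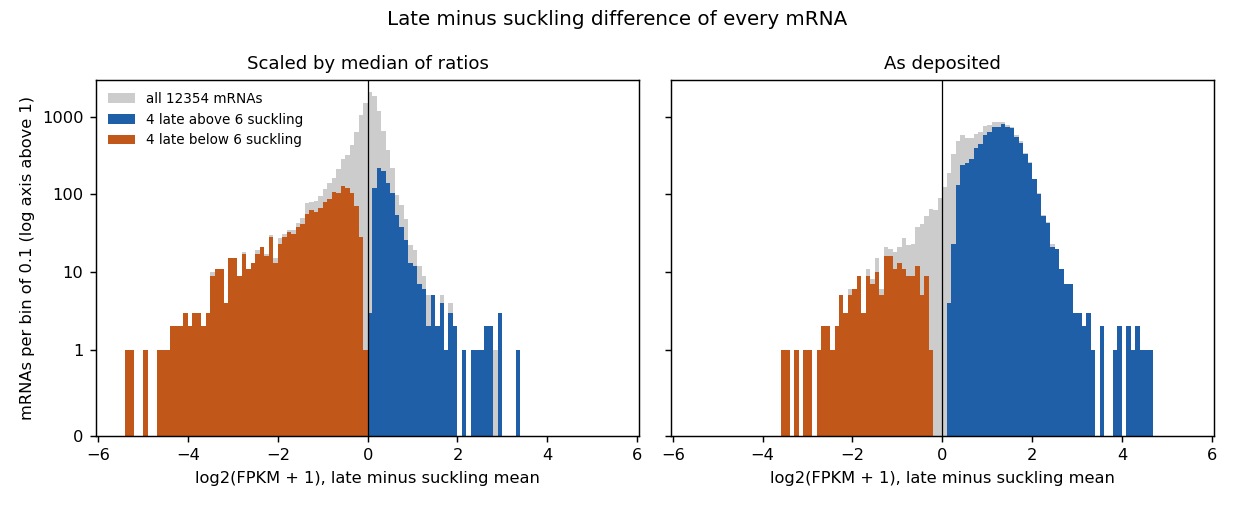
Histograms of the late minus suckling difference of the mean log2(FPKM + 1) for all 12354 mRNAs (grey), in bins of 0.1, on the scaled values (left) and the deposited values (right), with the number of mRNAs per bin on an axis that is logarithmic above 1. Blue marks the mRNAs whose 4 late libraries were all above the 6 suckling libraries (977 left, 8764 right) and orange those whose 4 were all below (1507 left, 187 right). The grey mass is centred at 0.02 on the left and at 1.11 on the right.

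The decreases were larger than the increases. The median log2 difference was -0.90 over the 1507 lower mRNAs and 0.36 over the 977 higher ones. The pseudocount of 1 shrinks changes of low rows, and the higher ones stood lower. Their late mean had a median of 2.04 scaled FPKM, and the suckling mean of the lower ones 8.05. The gaps that follow use no pseudocount. The nearest libraries of the 2 periods lay at least 2 times apart for 331 lower and 58 higher mRNAs, and at least 5 times apart for 66 and 15. Among the lower mRNAs, 1127 had their highest age mean at D0, and 793 declined in mean from D0 over D7 to D28. The lowest mean was at D180 for 988 of them and at Y2 for 519, and both Y2 libraries lay above both D180 libraries for 732. Among the higher mRNAs, 562 had their lowest mean at D0, 345 increased in mean from D0 over D7 to D28, and the highest mean was at D180 for 444 and at Y2 for 533. Separation itself fixes the period in which the highest and the lowest mean fall. These age patterns were not counted over all mRNAs, so the counts only describe the separating ones.

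Genes of the red cell lineage formed the largest group among the lists examined that was lower in the late period. All 30 measured erythroid genes were called lower by limma, 29 of them separated the periods, and 24 also did so on the deposited values, with a median log2 difference of -3.13 against 0.02 over all mRNAs. Over all mRNAs 11.2% were called lower, and 12.2% (scaled) and 1.51% (deposited) separated the periods as lower. The summed scaled FPKM of the list was 339419.7 to 1107949.6 in the suckling libraries and 37652 to 178792 in the late libraries, and HBB made up most of it. Deposited, the sum was 329701 to 484462 in the suckling libraries and 114155 to 284097 in the late libraries. The direction was negative for all 30 genes on the deposited values too, where the median was -1.60. With D180 left out 20 of the 30 were called lower, against 376 of all 12354 mRNAs, and with Y2 left out 26, against 469. In whole blood, fewer cells of a type and less RNA per cell cannot be told apart, and this holds for every group below.

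In the following, suckling values are given as the lowest, the median and the highest of the 6 libraries, and late values in the order D180 pig 1, D180 pig 2, Y2 pig 1 and Y2 pig 2, all in scaled FPKM. Genes not on the red cell list are included where the naming rule chose them for their size of change (ALAD, NT5C3A, PRDX2, NCOA4) or abundance (FTL). Haem synthesis genes were lower at the first and last steps and at steps between them. ALAS2, the erythroid enzyme of the first step, had 4032, 5978 and 9380.5 in the suckling period and 531, 451, 1758 and 1624 in the late period (-2.75 ± 0.49, log2 difference ± SE, adjusted p = 0.0044). ALAD, the enzyme of the second step, had 87.9, 112 and 153 against 4.71, 4.23, 8.9 and 9.03 (-3.97 ± 0.25, adjusted p = 6.01e-06). UROD had 11.07, 13.4 and 37.7 against 0.751, 0.521, 1.17 and 0.995, and FECH, which inserts the iron, 121, 154 and 350.3 against 9.4, 7.96, 28 and 38.1. In these 4 genes no late library reached the lowest suckling library.

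The embryonic globin chain HBZ declined at each age of the suckling period, with means of 821, 211 and 69.7 scaled FPKM at D0, D7 and D28. The late libraries had 2.76, 2.36, 16.8 and 14.5 (-4.91 ± 0.83, adjusted p = 0.0033), so that Y2 lay above D180 but under the lowest suckling library. HBM, the alpha-like mu globin, had 3148, 4789 and 9022 against 315, 285, 701 and 716 (-3.53 ± 0.43, adjusted p = 0.00052). HBB had 329729, 801976 and 1082187 against 46553, 36692, 145814 and 175723 (-3.02 ± 0.86, adjusted p = 0.0351). Its periods did not overlap on either scale, but its call was lost when any 1 of the 8 libraries outside D28 was left out (adjusted p 0.0512 to 0.117). AHSP, the chaperone of free alpha globin, had 150.4, 1193 and 2409.5 against 36.8, 29.8, 155 and 147. The D28 and Y2 libraries overlapped. AHSP was called lower (-3.45 ± 0.90, adjusted p = 0.0243), but not without D180 pig 1 or D180 pig 2 (adjusted p 0.0779 to 0.0813). Globin genes are near-identical in parts, so that the counting of the authors could split reads between them.

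Red cell membrane genes separated the periods widely. EPB42, protein 4.2 of the membrane skeleton, had 52.3, 93 and 112 against 2.67, 2.43, 3.84 and 3.51 (-4.35 ± 0.25, adjusted p = 4.00e-06). RHCE, the Rh blood group protein, had 82.9, 97 and 127 against 2.99, 2.18, 6.45 and 6.38 (-4.32 ± 0.26, adjusted p = 4.93e-06). SLC4A1, the band 3 anion exchanger, had 28.5, 59.8 and 88.6 against 3.01, 2.67, 8.19 and 8.11 (-3.21 ± 0.40, adjusted p = 0.000599). For EPB42 and RHCE the lowest suckling library exceeded the highest late library 13.6 and 12.9 times. The transcription factors of the lineage were lower as well. GATA1 had 15.8, 25.5 and 43.2 against 2.13, 2.02, 4.92 and 4.44 (-2.70 ± 0.33, adjusted p = 0.000497), and KLF1, at far lower levels, 1.39, 1.98 and 4.13 against 0.146, 0.0874, 0.0831 and 0.209 (-1.54 ± 0.22, adjusted p = 0.00122).

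Some genes of red cell enzymes and iron handling were lower too, of which NT5C3A, PRDX2 and NCOA4 were named because they were lower. No list of iron handling genes was examined. NT5C3A, the nucleotidase that clears pyrimidine nucleotides from maturing red cells, had the largest negative log2 difference among the named mRNAs, with 352, 417 and 1156 against 9.23, 8.32, 18.3 and 22.8 (-5.26 ± 0.43, adjusted p = 3.71e-05). Its suckling mean was 43.1 times its late mean, a ratio that TECTA, described below, exceeded (47.2 times). BPGM, which makes the 2,3-bisphosphoglycerate that lowers the oxygen affinity of haemoglobin, had 53.5, 85.1 and 345 against 4.2, 3.94, 6.37 and 6.52 (-4.27 ± 0.56, adjusted p = 0.000719). The antioxidant PRDX2 had 277, 585 and 593 against 22.3, 20, 31.6 and 33.8 (-4.13 ± 0.28, adjusted p = 8.19e-06), and CA2, a carbonic anhydrase, 20.6, 30.2 and 56 against 1.22, 1.04, 4.55 and 4.72. NCOA4, the receptor that sends ferritin to the lysosome, had 682, 730.3 and 2330.1 against 29.8, 30.7, 96.3 and 93.9 (-4.27 ± 0.53, adjusted p = 0.000531), and the ferritin light chain FTL 7720.1, 8742 and 17339 against 755, 659.6, 1974 and 1766 (-3.21 ± 0.45, adjusted p = 0.00113). The late libraries of all these genes lay under every suckling library, which the naming rule required of NT5C3A, PRDX2 and NCOA4. TFRC, the transferrin receptor, had 11.4, 23.8 and 45 against 4.64, 5.32, 8.78 and 9.02 (-1.70 ± 0.38, adjusted p = 0.0133), whereas on the deposited values its difference was -0.01 and its periods overlapped.

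**Figure D2:**
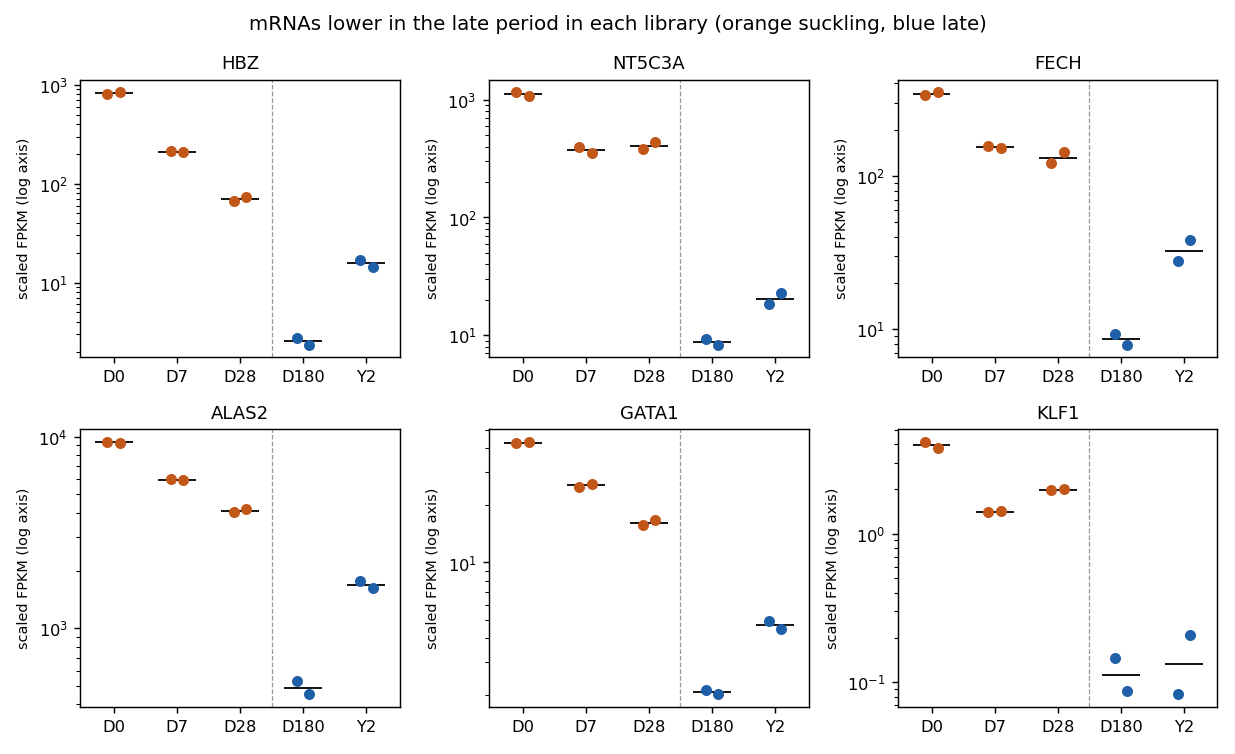
Scaled FPKM (log axis) of 6 mRNAs in each library, with 1 point per pig, orange for the suckling and blue for the late ages, and bars at the geometric mean of the 2 pigs. In HBZ, NT5C3A, FECH, ALAS2, GATA1 and KLF1 all 4 late points lie below all 6 suckling points, and in the first 5 both Y2 points lie above both D180 points.

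Other mRNAs with the largest decreases were not on the red cell list. TMCC2 had 94.3, 103 and 320.1 against 2.8, 2.53, 8.13 and 7.63 (-4.68 ± 0.47, adjusted p = 0.000128). GPX3, the secreted glutathione peroxidase, had 52, 185 and 246 against 12.4, 10.6, 4.08 and 4.8 (-4.01 ± 0.53, adjusted p = 0.000741), with its Y2 values below its D180 values. TECTA, known as a protein of the tectorial membrane of the inner ear, had 11.7, 17.5 and 151 against 0.998, 0.979, 1.46 and 1.65 (-3.91 ± 0.75, adjusted p = 0.00645), with the 2 D0 libraries at 148 and 151 far above the other 8. BLVRB, a biliverdin reductase, TRMO, a transfer RNA methyltransferase, PRXL2A, CCNDBP1, PTPA, the activator of protein phosphatase 2A, COX7B, a cytochrome oxidase subunit, and INO80C, a subunit of a chromatin remodeller, had differences between -4.04 (TRMO) and -3.51 (INO80C). Separation on the scaled values was a condition for naming them, and each also separated the periods on the deposited values. TPT1, which is known for its growth-dependent translation, had 7689, 12917 and 24485 against 2121, 1861, 3408 and 3312 (-2.41 ± 0.46, adjusted p = 0.00613). All of these mRNAs were highest at D0 or D7.

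Platelet genes were lower on the scaled values only. Of 14 measured, 9 were called lower (against 11.2% of all mRNAs) and none higher, 7 separated the periods (against 12.2% of all), and the median difference was -1.22. Deposited, none of the 14 separated the periods and 2 were called higher (against 87.3% of all mRNAs), with a median of 0.23. PPBP, the platelet basic protein, had 88.1, 186 and 252 against 62.7, 55.8, 32.1 and 34.5 (-1.83 ± 0.37, adjusted p = 0.00786). ITGB3, a chain of the fibrinogen receptor, had 10.9, 24.2 and 32.7 against 8.58, 7.24, 3.39 and 3.35 (-1.80 ± 0.37, adjusted p = 0.00879), and TREML1, of platelet granules, 6.3, 10.1 and 17.5 against 4.33, 2.96, 1.76 and 1.8 (-1.69 ± 0.30, adjusted p = 0.00455). In these 3 genes, unlike most red cell genes, both Y2 libraries were below both D180 libraries. With Y2 left out no platelet gene was called, and with D180, D0 or D7 left out 4, 4 and 5. Over all 12354 mRNAs these 4 fits called 469, 376, 1205 and 1211 lower. Without single libraries between 4 and 11 platelet genes were called, against 792 to 1769 of all mRNAs called lower. The call of CLEC1B (-1.92 ± 0.45, adjusted p = 0.0164) was lost without Y2 pig 1 or pig 2 (adjusted p 0.0522 to 0.0557). TUBB1, the platelet beta tubulin, had 21.5, 34.3 and 69.6 against 21.2, 19.1, 11.4 and 11.7 (-1.25 ± 0.36, adjusted p = 0.0361), and 0.51 on the deposited values. Its call was lost without any 1 of the 8 libraries outside D28 (adjusted p 0.0528 to 0.106).

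About as many cell division genes were called lower on the scaled values as were not called. Of 25 measured, 13 were called lower (against 11.2% of all mRNAs) and none higher, and 15 separated the periods (against 12.2% of all), with a median difference of -0.69. Deposited, 14 were called higher (against 87.3% of all) and 2 lower (against 2.10% of all), with a median of 0.47. UBE2C, the ubiquitin-conjugating enzyme of mitotic exit, was lower on both scales, with 17.1, 27.7 and 35.1 against 3.08, 2.87, 4.85 and 4.1 (-2.50 ± 0.22, adjusted p = 5.23e-05). BIRC5, or survivin, had 6.58, 34.6 and 63 against 2.62, 2.46, 3.66 and 3.95 (-2.64 ± 0.63, adjusted p = 0.0164), and its call was lost without D180 pig 2 (adjusted p = 0.0518). The spindle factor TPX2 had 9.9, 25 and 25.8 against 2.94, 3.16, 6.84 and 6.78 (-1.82 ± 0.34, adjusted p = 0.00602). With D180 left out 1 of the 25 genes was called lower, against 376 of all 12354 mRNAs, and with Y2 left out 4, against 469. The red cell list moved with these genes, and its part in their difference was not tested.

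Respiratory chain genes of the nucleus were called lower in 8 of 21 cases (against 11.2% of all mRNAs) and higher in none, and 10 separated the periods (against 12.2% of all), with a median of -0.39. All 21 differences were negative on the scaled values and 20 were positive on the deposited values, where the median was 1.01. COX5B, a cytochrome oxidase subunit, had 18.1, 26.9 and 65.9 against 9.46, 7.2, 9.79 and 8.67 (-1.77 ± 0.37, adjusted p = 0.00979), and NDUFB9, of complex I, 24.8, 25.7 and 48 against 12.3, 10.7, 15.1 and 14.3 (-1.19 ± 0.23, adjusted p = 0.00596). On the deposited values their differences were -0.05 and 0.55, and the periods overlapped in both. With D180 left out 2 of the 21 were called lower, against 376 of all 12354 mRNAs, and with Y2 left out 1, against 469.

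Of 8 genes of fetal programmes, 2 RNA-binding proteins were called lower (against 11.2% of all mRNAs) and none higher. IGF2BP3 had 2.73, 4.47 and 5.08 against 1.47, 1.14, 0.352 and 0.175 (-1.57 ± 0.23, adjusted p = 0.00128), and IGF2BP2 1.83, 3.93 and 6.19 against 1.48, 1.44, 0.736 and 0.895 (-1.13 ± 0.24, adjusted p = 0.00984). Both separated the periods on the scaled values, and on the deposited values, where their periods overlapped, the differences were -0.41 and 0.13. LIN28B, which blocks let-7 maturation, had 0.0444 to 1.13 in the suckling libraries and 0 to 0.356 in the late ones, with differences of -0.22 ± 0.20 (adjusted p = 0.48) scaled and 0.16 deposited.

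Of 28 interferon response genes, ISG15 and IFIT1 were called lower and none was called higher, with a median of -0.04. As a share of the list this was below the 11.2% of all mRNAs called lower. IFIT1 had 481, 1058 and 1156 against 136, 133, 125 and 127 (-2.73 ± 0.29, adjusted p = 0.000207) and was lower on both scales. ISG15, a ubiquitin-like protein, had 16.3, 30.9 and 34.2 against 7.14, 5.77, 3.83 and 2.87 (-2.25 ± 0.28, adjusted p = 0.000562). In both genes the 6 suckling libraries lay more than 2 times above the highest late library. Single members of further lists were lower too: ARG1, the arginase of the urea cycle and of myeloid cells, had 193, 379 and 1587 against 27.6, 23.5, 99.3 and 100.4 (-3.21 ± 0.70, adjusted p = 0.0119). Among 21 immediate early and heat shock genes only the chaperone HSPA8 was called (-0.84 ± 0.16, adjusted p = 0.00725), and its difference was positive, 0.95, on the deposited values. TPM1, 1 of 5 measured muscle genes, had 7.12, 23.7 and 24.6 against 3.57, 3.02, 2.39 and 2.16 (-2.24 ± 0.36, adjusted p = 0.00259). KDR, 1 of the 2 genes measured of endothelium, fibroblasts and epithelium, differed by -0.93 ± 0.25 (adjusted p = 0.0259), and this call was lost without D0 pig 2 or any 1 late library (adjusted p 0.0502 to 0.0701).

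Among the genes that were higher in the late period, those of B cells stood out by number. Of 27 measured, 19 were called higher (against 6.78% of all mRNAs) and none lower, and 18 separated the periods (against 7.91% of all), with a median difference of 0.72 against 0.02 over all mRNAs. Deposited, all 27 separated the periods, as did 70.9% of all mRNAs. The summed scaled FPKM of the list was 59.5 to 105 in the suckling libraries and 162 to 171 in the late libraries. With D180 left out 6 of the 27 were called higher, against 259 of all 12354 mRNAs, and with Y2 left out 7, against 213. Without single libraries 14 to 20 of the 27 were, against 443 to 1048 of all mRNAs.

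MS4A1, the CD20 antigen of B cells, had 3.84, 6.08 and 16.1 scaled FPKM in the suckling period and 27.8, 27.8, 32.2 and 32.4 in the late period (1.92 ± 0.35, adjusted p = 0.0051). Its age means were 3.88 at D0, 6.08 at D7 and 14.8 at D28, so that it was already higher at D28. PAX5, the transcription factor of B cell identity, had 1.49, 2.49 and 3.9 against 7.55, 7.33, 6.46 and 6.79 (1.18 ± 0.19, adjusted p = 0.0028). BANK1, a scaffold of B cell receptor signalling, had 2.62, 5.73 and 7.34 against 12.3, 13.1, 12.2 and 12.2 (1.21 ± 0.23, adjusted p = 0.00674). In these 3 genes no suckling library reached a late one. CD72, an inhibitory co-receptor, had 1.15, 1.45 and 1.82 against 3.76, 3.84, 4.61 and 4.54 (1.08 ± 0.11, adjusted p = 0.000122), with age means of 1.45 at D0 and 1.77 at D28. BLK, a kinase of the B cell receptor, had 4.04, 5.85 and 6.22 against 10.6, 11.7, 11.8 and 11.2 (0.96 ± 0.13, adjusted p = 0.000891), with its lowest values at D7. The receptor for the survival factor BAFF, TNFRSF13C, had 0.88, 1.48 and 2.23 against 4.58, 4.16, 3.51 and 3.49 (0.99 ± 0.16, adjusted p = 0.00287).

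The B cell receptor chains differed less. CD79A had 4.35, 5.62 and 8.16 against 8.32, 9.08, 10.5 and 8.93 (0.61 ± 0.15, adjusted p = 0.0202), with the nearest libraries only 1.02 times apart, and its call was lost without D180 pig 2, Y2 pig 1 or Y2 pig 2 (adjusted p 0.0526 to 0.0674). CD79B had 4.58, 6.08 and 8.36 against 10.9, 10.5, 11.07 and 10.8 (0.74 ± 0.15, adjusted p = 0.00784), and the linker BLNK 2.76, 3.43 and 4.33 against 5.44, 5.62, 6.77 and 6.53 (0.70 ± 0.12, adjusted p = 0.00323). Of the plasma cell genes on the list, JCHAIN, which joins immunoglobulin units, had 0.912 to 14.6 in the suckling and 9.52 to 13.8 in the late libraries (1.06 ± 0.48, adjusted p = 0.15), and XBP1 1.85 to 3.5 and 2.36 to 3.76 (0.28 ± 0.15, adjusted p = 0.216). Both overlapped between the periods on the scaled values and were higher in all late libraries on the deposited values.

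Antigen presentation genes of MHC class II were higher in part. Of 8 measured, SLA-DMA, SLA-DMB, SLA-DOA and CIITA were called higher (against 6.78% of all mRNAs) and RFXANK lower (against 11.2% of all), with a median of 0.83. With 1 age left out, 1 to 6 were called higher, against 213 to 1963 of all 12354 mRNAs. CIITA, the master coactivator of the class II genes, had 0.609, 1.96 and 3.6 against 5.3, 5.1, 4.85 and 5.16 (1.11 ± 0.26, adjusted p = 0.0157). SLA-DMA had 6.28, 11.4 and 18.3 against 23.4, 21.7, 23.8 and 24.2 (1.00 ± 0.28, adjusted p = 0.031), with D28 close under the late libraries. The invariant chain CD74 separated the periods with 91, 108 and 111 against 137, 122, 118 and 126 but was not called (0.29 ± 0.14, adjusted p = 0.181). RFXANK, a subunit of the factor that recruits CIITA, had 2.67, 4.33 and 6.27 against 2.27, 1.87, 1.58 and 1.75 (-0.87 ± 0.21, adjusted p = 0.0175), and a difference of 0.52 on the deposited values. MHC genes resemble each other and are uncertain in the same way as the globins. A gene named HLA-DRA, which is not on the list under that name, had 20, 39.2 and 90.3 against 117, 112, 113 and 115 (1.46 ± 0.41, adjusted p = 0.0327). The calls of SLA-DMA (without 6 libraries, adjusted p 0.054 to 0.0782), SLA-DMB (without 5, 0.0502 to 0.0777), RFXANK (without D180 pig 2 or either Y2 pig, 0.05003 to 0.0568) and HLA-DRA (without any 1 of the 8 outside D28, 0.054 to 0.0805) were lost with single libraries left out: for SLA-DMA these were D0 pig 2, D7 pig 2 and the 4 late libraries, and for SLA-DMB D0 pig 2 and the 4 late libraries.

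Other named genes with large or wide increases were on no list of B cell or MHC class II genes. SOX13, a transcription factor of gamma delta T cells, had 1.83, 2.29 and 2.65 in the suckling period and 8.34, 8.89, 7.78 and 7.6 in the late period (1.5 ± 0.10, adjusted p = 7.78e-06). Its suckling libraries hardly moved between D0 and D28, and the lowest late library was 2.86 times the highest suckling one. CD200R1, an inhibitory receptor of myeloid cells and lymphocytes, had 0.806, 1.13 and 1.69 against 5.16, 4.67, 5.7 and 6.38 (1.55 ± 0.13, adjusted p = 5.23e-05). AMPD3, an AMP deaminase, had 0.124, 0.389 and 0.604 against 2.23, 2.18, 2.48 and 2.66 (1.32 ± 0.11, adjusted p = 5.23e-05), which was the widest gap among the higher genes with a symbol that are named here, 3.61 times. The repressor ZBTB32 had 0.187, 0.386 and 1.72 against 4.09, 4.44, 4.39 and 4.14 (1.71 ± 0.23, adjusted p = 0.000863), and SCIMP, an adaptor bound to MHC class II, 0.165, 0.762 and 2.02 against 4.58, 4.42, 7.59 and 7.82 (1.90 ± 0.29, adjusted p = 0.00184). SLAMF7 and SLAMF8, receptors of the same family, had 4.32 to 6.92 and 0.113 to 0.437 in the suckling libraries and 12.4 to 18.3 and 1.31 to 1.96 in the late ones. The naming rule required every late library to lie above every suckling one, so that this holds for all of these genes by selection.

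**Figure D3:**
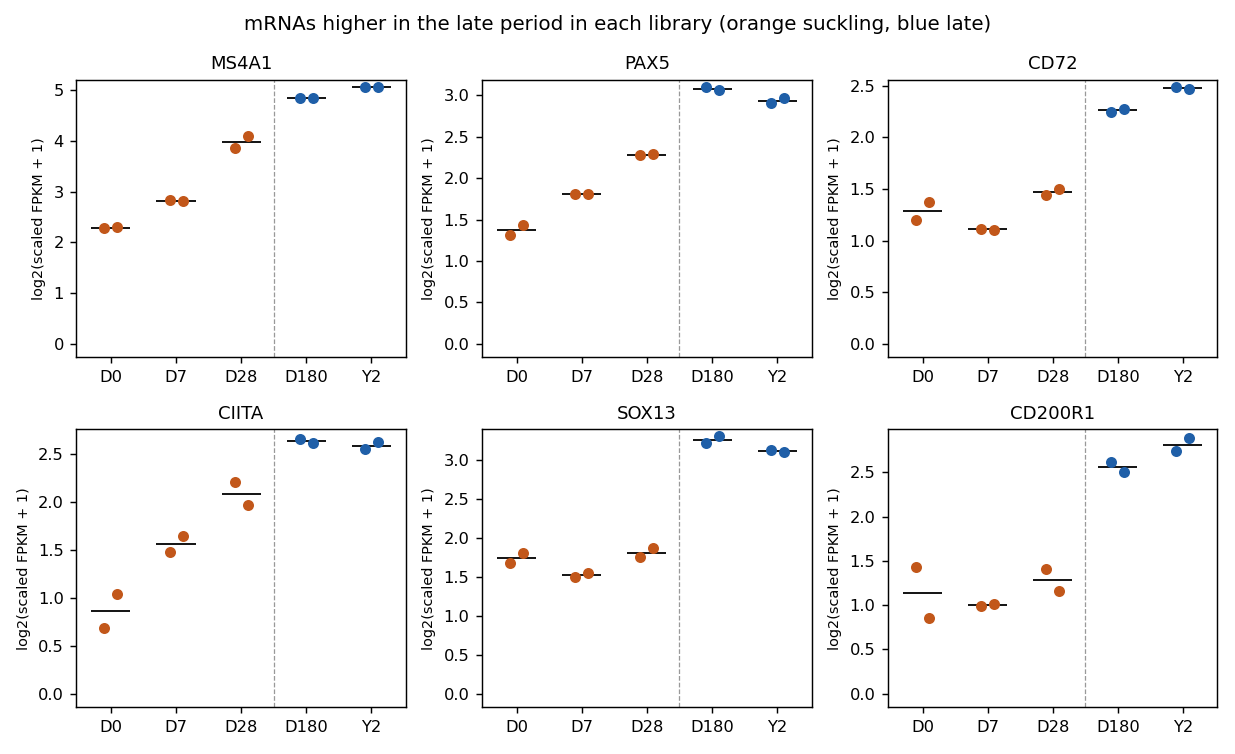
Level of 6 mRNAs in each library as log2(scaled FPKM + 1), with 1 point per pig, orange for the suckling and blue for the late ages, and bars at the mean of the 2 pigs. MS4A1, PAX5 and CIITA already increased from D0 to D28, while CD72, SOX13 and CD200R1 changed less over the suckling ages. In all 6 the late points lie above every suckling point.

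Granulocyte genes were mixed. Of 23 measured, MMP9, CEBPE and IL5RA were called higher (against 6.78% of all mRNAs) and ARG1 lower (against 11.2% of all), with a median of 0.07. With D28 left out 2 were called higher and 10 lower, against 1963 and 2468 of all 12354 mRNAs. MMP9, a gelatinase of neutrophil granules, had 0.494, 0.897 and 4.57 against 5.84, 5.18, 17.8 and 17.5 (2.14 ± 0.47, adjusted p = 0.012), the largest positive log2 difference among the genes with a symbol that separated the periods and were called. Its D7 libraries, at 3.62 and 4.57, were the highest of the suckling period, and the Y2 libraries were the highest of all. IL5RA, the interleukin 5 receptor of eosinophils, had 0.0451, 0.11 and 0.512 against 1.03, 0.693, 4.5 and 4.18 (1.43 ± 0.32, adjusted p = 0.0127). PADI2, which makes citrulline in proteins, had 0.218, 0.309 and 1.09 against 1.82, 1.69, 4.48 and 4.59 (1.39 ± 0.26, adjusted p = 0.00596). In these 3 genes Y2 exceeded D180, and CEBPE, at 0.218 to 1.26 and 0.988 to 4.49, overlapped between the periods. The call of CEBPE (1.03 ± 0.30, adjusted p = 0.0401) was lost without D0 pig 2 or any 1 of the D7, D28 or Y2 libraries (adjusted p 0.0561 to 0.122).

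The remaining genes with large increases were of varied function. FN1, fibronectin, had 0.326, 1.37 and 2.15 against 4.81, 4.49, 8.97 and 8.89 (1.81 ± 0.30, adjusted p = 0.00284), with its lowest values at D28. RHEX, a regulator of red cell expansion, had 4.44, 5.82 and 10.1 against 20.6, 15.7, 26.9 and 25.4 (1.61 ± 0.24, adjusted p = 0.00154), opposite in direction to the red cell list. The metallothionein MT1X had 0.132, 0.345 and 0.561 against 5.44, 3.53, 1.24 and 1.6 (1.41 ± 0.26, adjusted p = 0.00478), highest at D180. LIMD1 and ZBTB38 had 1.11 to 4.53 and 1.08 to 3.37 in the suckling libraries and 6.68 to 6.98 and 5.02 to 5.38 in the late ones. A row of the mRNA table listed as SNORA74, a small nucleolar RNA, had 0, 1.56 and 3.43 against 6.26, 5.86, 7.05 and 3.45, with D0 pig 1 and D7 pig 2 at 0. Its Y2 pig 2 value barely exceeded the highest suckling value, and its call (adjusted p = 0.0394) was lost without D0 pig 1 or any 1 D7 or late library (adjusted p 0.0589 to 0.105).

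Of the 977 mRNAs with higher late libraries, 10 were listed at 0 in every suckling library. Among them, ENSSSCG00000039803, which has no symbol in the tables used here and was picked after its values were seen, had 2.81, 2.87, 2.99 and 3.09 in the late libraries. ENSSSCG00000037009, also without a symbol and picked in the same way, had age means of 0.041 at D0, 3.65 at D7 and 7.18 at D28, and 28.4, 25.9, 41.6 and 41.1 in the late libraries (3.34 ± 0.62, adjusted p = 0.0054). Both were higher in all 4 late libraries on both scales.

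Few genes on the lists of the other white cells separated the periods on the scaled values. Of 33 T cell genes, SOX13, FOXP3, TEC and GATA3 were called higher (against 6.78% of all mRNAs) and none lower, with a median of 0.14. With D28 left out 11 were called higher, against 1963 of all 12354 mRNAs. Only SOX13 and the kinase PAK2 separated the periods scaled, while 21 of the 33 did so on the deposited values, all higher, a smaller share than the 70.9% of all mRNAs. The CD3 chain CD3E had 12.6, 16.5 and 33.7 against 22.5, 21.5, 22.5 and 22.3 (0.20 ± 0.27, adjusted p = 0.652), with its D28 libraries above the late ones. CD4 had 3.77, 7.18 and 11.7 against 7.59, 6.24, 4.77 and 5.38 (-0.17 ± 0.29, adjusted p = 0.722), and 1.38 on the deposited values. FOXP3, the factor of regulatory T cells, had 0.114, 0.211 and 0.514 against 0.525, 0.355, 0.935 and 0.942 (0.43 ± 0.12, adjusted p = 0.0303), and GATA3 3.12, 4.79 and 9.05 against 9.95, 9.4, 8.97 and 8.49 (0.76 ± 0.23, adjusted p = 0.0429). The calls of GATA3 (without any 1 library outside D28, adjusted p 0.067 to 0.109), FOXP3 (without any 1 D0, D7 or Y2 library, 0.0515 to 0.094) and TEC (without D0 pig 2, D180 pig 1 or either Y2 pig, 0.0532 to 0.0823) were lost with single libraries left out.

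Of the 21 genes on the cytotoxic and natural killer cell list, 0 were called by limma on the scaled values and 0 had an unadjusted p under 0.05. None separated the periods, and the median was -0.08, while 17 were called higher on the deposited values, a smaller share than the 87.3% of all mRNAs. With D28 left out 9 were called higher, against 1963 of all 12354 mRNAs. Of 12 monocyte genes only the integrin ITGAM was called, higher, a share near the 6.78% of all mRNAs (0.47 ± 0.13, adjusted p = 0.030), and not without D0 pig 1, D0 pig 2, D180 pig 2 or either Y2 pig (adjusted p 0.0525 to 0.095). With D28 left out 1 monocyte gene was called higher and 3 lower, against 1963 and 2468 of all mRNAs. Of 17 innate receptor genes, the neighbouring toll-like receptors TLR10, TLR1 and TLR6 were called higher (against 6.78% of all mRNAs) and separated the periods. With 1 age left out, 0 to 6 of the 17 were called higher, against 213 to 1963 of all 12354 mRNAs. TLR10 had 0.639, 1.33 and 1.42 against 2.81, 2.79, 2.2 and 2.75 (0.75 ± 0.12, adjusted p = 0.00261), TLR1 1.65, 2.91 and 3.55 against 4.66, 4.83, 4.61 and 5.09 (0.67 ± 0.14, adjusted p = 0.0107) and TLR6 1.36, 2.02 and 2.41 against 3.66, 3.72, 2.67 and 2.71 (0.51 ± 0.14, adjusted p = 0.026). In RefSeq on Sscrofa11.1 they lie side by side on chromosome 8, from 30124895 to 30134854, from 30147600 to 30155454 and from 30159744 to 30180650. The call of TLR6 was lost without D180 pig 1 or pig 2 (adjusted p 0.0842 to 0.0876). Of 35 cytokine and chemokine genes, CXCL8, CCR6 and CXCR5 were called higher, a share near the 6.78% of all mRNAs. On the scaled values 6 of the 35 separated the periods as higher, against 7.91% of all mRNAs. With 1 age left out 1 to 5 of the 35 were, against the same 213 to 1963 of all mRNAs. CCR6 had 0.909, 1.04 and 1.47 against 2.38, 1.99, 1.76 and 1.83 (0.49 ± 0.10, adjusted p = 0.00663), and CXCR5, the homing receptor of B cell follicles, 0.506, 1.38 and 1.56 against 2.68, 2.43, 1.72 and 1.85 (0.56 ± 0.17, adjusted p = 0.0435), a call that was lost without D0 pig 1, D0 pig 2, D7 pig 1 or any 1 late library (adjusted p 0.0592 to 0.128).

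**Figure D4:**
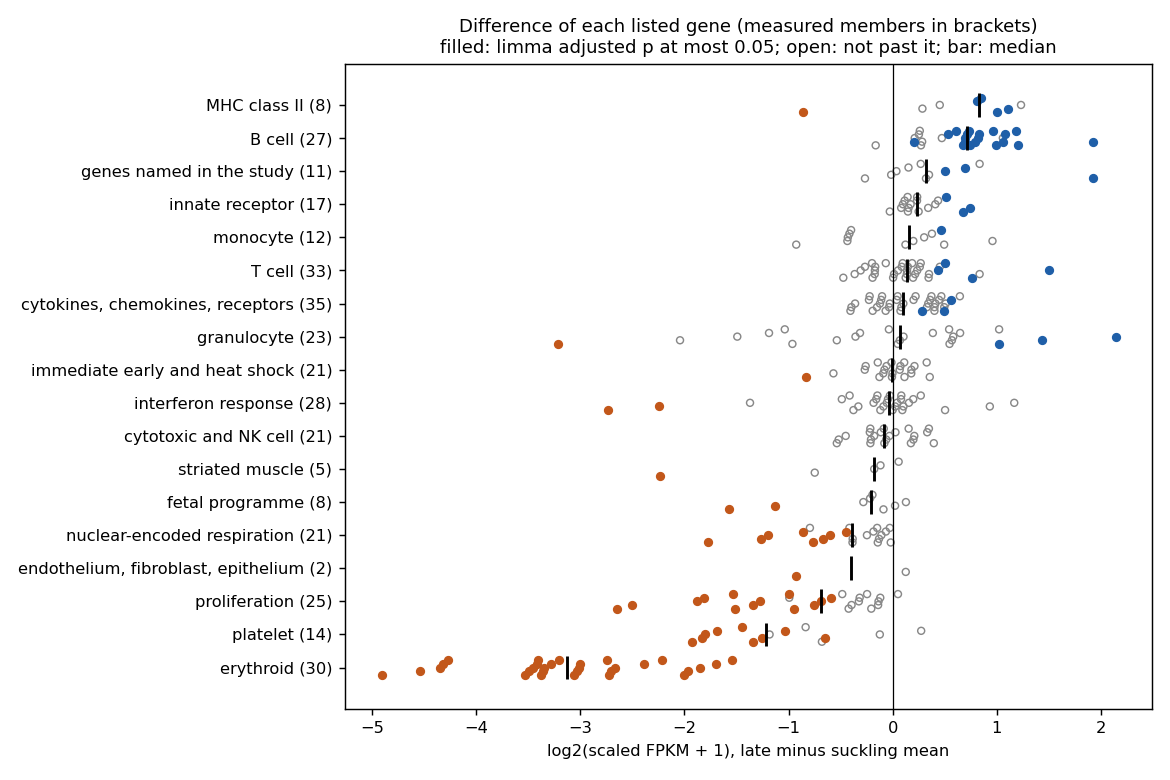
Late minus suckling difference of each listed gene (mean log2(scaled FPKM + 1)), 1 row per list, ordered by its median (bar). Filled points passed the limma limit, blue higher and orange lower, and open points did not. All 30 erythroid points are orange and negative, 19 of 27 B cell points are blue, and most points of the T cell, monocyte and cytotoxic lists are open and near 0.

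A further list held 11 of the genes that the study names, which it chose on these samples, so that their direction is not independent evidence. On the scaled values MS4A1, BLNK and TEC were called higher (against 6.78% of all mRNAs) and none lower. PAK2 separated the periods with 8.66, 10.9 and 12.4 against 13.8, 13.5, 13.9 and 13.7 but was not called (0.35 ± 0.13, adjusted p = 0.0781). SOS2 had 4.2, 6.58 and 7.37 against 6.68, 7.25, 8.22 and 7.37 (0.27 ± 0.15, adjusted p = 0.245). NFATC2 had 1.38, 4.26 and 10.7 against 8.48, 8.22, 8.33 and 8.92 (0.84 ± 0.43, adjusted p = 0.201), with the D28 libraries at 9.77 and 10.7 above the late range. Deposited, all 11 separated the periods as higher, as did 70.9% of all mRNAs.

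The 2 scales gave opposite directions for 410 mRNAs, which were lower in all 4 late libraries on the scaled values and higher in all 4 on the deposited ones. Their scaled suckling mean was 1.57 times the late mean in the median, with a range of 1.09 to 2.85, while the deposited late mean was 2.32 times the suckling mean, and limma called 250 of them lower on the scaled values. TMSB4X, which binds free actin, had 532, 811 and 872 against 465, 399.6, 424 and 429 scaled FPKM (-0.75 ± 0.23, adjusted p = 0.0432). Its deposited values were 362 to 565 FPKM in the suckling libraries and 679 to 1336 in the late ones (1.07, adjusted p = 0.00236). The ribosomal proteins RPS16 and RPS28 did the same, though ribosomal protein genes have near-identical copies between which reads could be split. For RPS16 and RPS28 the scaled differences were -0.82 and -0.64 and the deposited ones 1.00 and 1.18. The scaled call of TMSB4X was lost without any 1 of the 8 libraries outside D28 (adjusted p 0.072 to 0.114). Of 49 measured genes with a ribosomal protein symbol, a group formed after the data were seen, 32 separated the periods as lower on the scaled values, 25 as higher on the deposited values, and 12 did both. Over all mRNAs these were 12.2%, 70.9% and 410 of 12354. limma called 13 of the 49 lower on the scaled values, against 11.2% of all mRNAs.

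The lncRNA table gave more increases than decreases when changes of any size were counted. On the scaled values 436 lncRNAs (7.33% of 5946) had all 4 late libraries above all 6 suckling libraries and 158 (2.66%) had all 4 below. On the deposited values these were 2304 (38.7%) and 52 (0.875%). limma called 107 higher (1.80%) and 62 lower (1.04%) on the scaled values, and 3304 higher (55.6%) and 104 lower (1.75%) on the deposited ones. The median log2 difference was 0.25 over the 436 and -0.70 over the 158. The nearest libraries of the 2 periods lay at least 2 times apart for 66 of the 436 and 76 of the 158. With a log2 difference of at least 1, limma called 6 of the 436 and 39 of the 158. Of the 158, 52 were also lower, 105 overlapped and 1, TCONS_00140781, was higher on the deposited values. With 1 library left out, the number called higher was 54 without D0 pig 1, 57 without D0 pig 2, 52 without D180 pig 1 and 41 without D180 pig 2. The number called lower was 25 without D180 pig 1, 19 without D180 pig 2, 33 without Y2 pig 1 and 32 without Y2 pig 2.

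Most of the lncRNAs that were higher stood at very low levels. Their mean over the 4 late libraries had a median of 0.40 scaled FPKM, against 2.04 for the mRNAs that were higher, and 34 of the 436 were listed at 0 in every suckling library. For the lncRNAs that were lower, the mean over the suckling libraries had a median of 0.92 scaled FPKM. The lncRNAs with the largest decreases were chosen with a mean of at least 0.5 scaled FPKM. Their levels therefore do not describe all lncRNAs that were lower. TCONS_00026569 had 35.5, 92.7 and 126 in the suckling period and 4.92, 3.92, 0 and 0 in the late period (-5.02 ± 0.69, adjusted p = 0.00647). TCONS_00026570, which shares its end on the plus strand of chromosome 11 (66218787 to 66219107 and 66210464 to 66219107, Sscrofa11.1), had 34.5, 97.2 and 108 against 5.35, 3.89, 0.0364 and 0 (-4.96 ± 0.67, adjusted p = 0.00644). At Y2 the first was listed at 0 in both pigs and the second in 1. The 2 transcripts overlap and are not separate evidence, and no RefSeq gene overlaps them.

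TCONS_00038691, on chromosome 13 from 21310133 to 21310405 (plus strand) and outside RefSeq genes, had 30.4, 66.3 and 74.4 against 2.59, 2.57, 2.48 and 2.32 (-4.08 ± 0.40, adjusted p = 0.00111). Its late libraries were nearly equal, and the lowest suckling library was 11.7 times the highest late one. TCONS_00133417 and TCONS_00133415, on chromosome 5 from 42308951 to 42314800 (plus strand), overlap a gene that RefSeq lists as a lncRNA, LOC100511509. They had 10.8, 23.5 and 96.5 against 0.974, 1.45, 2.56 and 2.03 (-3.52 ± 0.66, adjusted p = 0.0259) and 4.53, 7.56 and 15.9 against 0.258, 0.172, 0.537 and 0.31 (-2.85 ± 0.32, adjusted p = 0.00274). The call of the former was lost without any 1 late library (adjusted p 0.0509 to 0.0723). TCONS_00119400, which was highest at D7, TCONS_00084032 and TCONS_00085387 differed by -3.23, -2.99 and -2.94. That no late library reached a suckling one was a condition for naming these lncRNAs. The calls of TCONS_00119400 (without either D0 or D180 pig or Y2 pig 1, adjusted p 0.0504 to 0.0927) and TCONS_00085387 (without either D180 pig, 0.0607 to 0.0624) were lost with single libraries left out.

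Among the lncRNAs that were higher, TCONS_00193155, on an unplaced scaffold, had the largest log2 difference of those named. It increased from a mean of 0.0274 at D0 over 0.191 at D7 to 0.57 at D28, and had 3.74, 4.46, 3.32 and 3.97 in the late libraries (1.97 ± 0.16, adjusted p = 0.000637). TCONS_00133647 and TCONS_00133645, on the plus strand of chromosome 5 from 49310198 to 49508565 and to 49609002, lie within the span of SOX5 (49159950 to 50166463). They had 0, 0.0563 and 0.532 against 1.59, 1.67, 1.69 and 1.74 (1.26 ± 0.12, adjusted p = 0.00111) and 0.070, 0.215 and 0.556 against 1.4, 1.34, 1.26 and 1.27 (0.89 ± 0.12, adjusted p = 0.00647). The SOX5 mRNA, of a developmental transcription factor, had 0.0402, 0.365 and 1.21 against 1.95, 2.01, 2.67 and 2.74 (1.20 ± 0.21, adjusted p = 0.00395). All 3 were higher in every late library, which the naming rule required. The libraries were strand-specific, but whether the counting used the strand is not given in the sources used here, and neither is the strand of SOX5, so that how far SOX5 and these lncRNAs share reads was not tested.

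TCONS_00051228 and TCONS_00051227, on the minus strand of chromosome 13 from 138224513 to 138224749 and from 138222894 to 138224022, overlap the protein-coding gene LOC396867. They had 0, 0.0169 and 0.198 against 0.867, 1.34, 4.0 and 5.75 and 0, 0.0236 and 0.141 against 0.706, 0.504, 3.46 and 3.43, with Y2 above D180 in both. The call of the first (1.72 ± 0.31, adjusted p = 0.0213) was lost without Y2 pig 1 (adjusted p = 0.0561), and that of the second (1.36 ± 0.30, adjusted p = 0.0404) without any 1 suckling or Y2 library (adjusted p 0.0604 to 0.0928). TCONS_00160484, on chromosome 7 from 24956714 to 24957021 (plus strand), overlaps the MHC class II gene SLA-DQA1 and had 0.107, 0.234 and 0.877 against 1.42, 1.95, 1.03 and 1.69 (0.86 ± 0.18, adjusted p = 0.0347). ENSSSCT00000046899, on chromosome 9 from 66696501 to 66723911 (plus strand) and overlapping the protein-coding gene LOC100627879, had 0.887, 1.12 and 2.6 against 4.31, 4.19, 4.09 and 3.78 (1.1 ± 0.21, adjusted p = 0.0271), and TCONS_00197550, on the X chromosome from 45762913 to 45763074 (plus strand), 0, 1.42 and 2.41 against 6.3, 7.8, 3.65 and 4.2 (1.69 ± 0.38, adjusted p = 0.0445). The calls were lost for TCONS_00160484 without any 1 D0, D7 or D180 library or Y2 pig 2 (adjusted p 0.0558 to 0.103), for ENSSSCT00000046899 without either D180 pig or Y2 pig 1 (0.0509 to 0.0634) and for TCONS_00197550 without any 1 library but D28 pig 2 (0.0576 to 0.13).

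**Figure D5:**
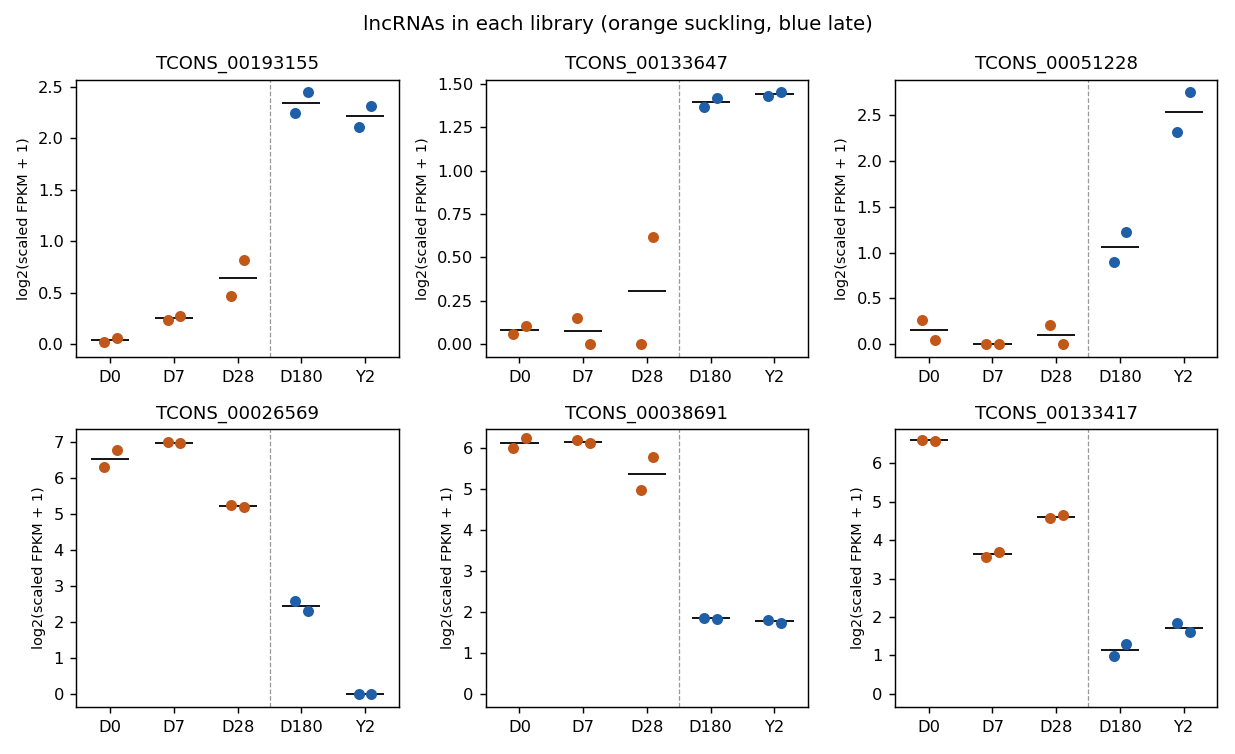
Level of 6 lncRNAs in each library as log2(scaled FPKM + 1), with 1 point per pig, orange for the suckling and blue for the late ages, and bars at the mean of the 2 pigs. The upper 3 are higher in all 4 late libraries and the lower 3 lower in all 4, and TCONS_00026569 lies at 0 in both Y2 libraries.

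Of the 436 lncRNAs that were higher, 278 overlapped a protein-coding gene of RefSeq, as did 61 of the 158 that were lower and 51.85% of all 5946. The overlapped genes were compared through the mRNA table. The lncRNAs that were higher overlapped 209 of its mRNAs, of which 54 separated the periods as higher and 6 as lower. The lncRNAs that were lower overlapped 39, of which 24 were lower and 1 higher. Over all 1571 mRNAs overlapped by a listed lncRNA, 160 were higher and 173 lower. Overlapping transcripts may share reads, so these counts describe the tables and are not separate measurements.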

How the data were processed

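Peripheral blood libraries from 10 female pigs, 2 per age, were grouped by the age on their labels. The authors aligned reads with HISAT2 2.0.4 to Sscrofa11.1 and deposited FPKM, from StringTie 1.3.3 for mRNAs (above 0.5 FPKM in at least 1 library) and Cufflinks 2.2.1 for lncRNAs (above 0.1 FPKM). Counts were not used here, so the depth behind a value is unknown. The p-values rest on the spread between the libraries of a period, which mixes pigs and ages. The fit took the 10 libraries as independent, although the 2 pigs of an age share that age. Its SEs and adjusted p-values can therefore be too small for a difference between periods.

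Both tables were scaled per library by median-of-ratios factors taken from the mRNA table. limma 3.58.1 in R 4.3.3 compared log2(scaled FPKM + 1) between the 2 periods with its trend option, and p-values were adjusted over all rows of a table after Benjamini and Hochberg. The pseudocount of 1 understates changes of low rows. Separation of the periods was counted without a test. On simulated mRNAs, 193 of 200 changes of log2 2 were recovered with 12 false calls, and on simulated lncRNAs 195 with 12. The simulated libraries had independent noise, without the shared level of the 2 pigs of an age, and changes were planted only in rows above the median level. These numbers therefore check that the step runs as intended and do not give the power or error of the real comparison. Other steps used Python 3.11.15, pandas 2.3.3, numpy 2.4.6 and matplotlib 3.10.9.

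Symbols came from a gene name table (9735 identifiers) and the supplementary tables of the study (6), together 9741 of 12354, and positions from RefSeq on Sscrofa11.1. Named were, in each direction, the 20 mRNAs with a symbol and 8 lncRNAs with the largest called difference that separated the periods (mean of at least 1 or 0.5 scaled FPKM), the 5 widest gaps, members of 19 gene lists (341 of 472 genes measured), the 10 most abundant mRNAs and those with opposite directions, of which some are not reported here. The comparison, the members and the lists were chosen with earlier results of these data known. Alternatives were other scalings, a pseudocount of 0.1, a filter on low values, 5 ages in the fit, a replicate block, no trend, single libraries or ages left out, a gap of 1.5 times and a log2 limit of 1.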

Additional observations from a re-analysis of the deposited data

Results flagged for a closer look

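Of 266 groups of library values of the named genes, 7 had a library that lay apart from the others of its period by Dixon's test at its 95% limit, and chance flags about 1 in 20. In the late period, BANK1 was highest in D180 pig 2 (13.1 scaled FPKM, others 12.2 to 12.3), CD3E lowest in D180 pig 2 (21.5, others 22.3 to 22.5) and TLR10 lowest in Y2 pig 1 (2.196, others 2.75 to 2.81). In the suckling period, IL5RA was highest in D7 pig 1 (0.512, others 0.0451 to 0.202) and FOXP3 in D28 pig 2 (0.514, others 0.114 to 0.228). Among lncRNAs, TCONS_00051227 was highest in D0 pig 1 (0.141, others 0 to 0.0408) and TCONS_00133647 in D28 pig 2 (0.532, others 0 to 0.109). Except for FOXP3, whose value lay within the late range, and CD3E, whose periods overlapped, each of these genes still separated the periods.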

How the results depend on the processing

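The number of rows that separated the periods or were called depended on the scale and on the ages, and the cause was not tested. The values are higher and then lower in the late period. For mRNAs, limma called 837 and 1378, against 10788 and 259 on the deposited values, 8966 and 560 with the 10 highest mRNAs removed, 3091 and 3219 with 5 ages in the fit, 58 and 697 with a log2 limit of 1, 443 to 1048 and 792 to 1769 with 1 library left out, 1963 and 2468 without D28, 259 and 376 without D180, and 213 and 469 without Y2. A factor over mRNAs above 1 FPKM in every library called 1664 higher. For lncRNAs, 107 and 62 became 3304 and 104 (deposited), 2430 and 155 (10 highest removed), 791 and 398 (5 ages), 6 and 40 (log2 limit), 41 to 95 and 19 to 76 (1 library left out), 192 and 164 (without D28) and 173 and 31 (without Y2). The number called higher was 241 with the factor above 1 FPKM, 57 without D0 and 187 without D7, and the number called lower 146 with the pseudocount 0.1 and 15 without D180. The separating mRNAs, 977 and 1507, became 8764 and 187 (deposited), 6558 and 427 (10 highest removed), 131 and 534 (gap of 1.5 times), 1047 to 1234 and 1550 to 1781 (1 library left out) and 2289 and 2609 (without D28). Those higher were 1658 with the factor above 1 FPKM, 1618 without D7, 1688 without D180 and 1652 without Y2. The separating lncRNAs, 436 and 158, became 2304 and 52 (deposited), 1673 and 87 (10 highest removed), 117 and 98 (gap), 468 to 602 and 173 to 199 (1 library left out), 882 and 238 (without D7), 754 and 336 (without D28) and 1160 and 247 (without Y2). Those higher were 767 without D180, and those lower 251 without D0. Leaving out libraries makes separation easier by construction.

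Of 120 called differences of named rows, 89 kept their call with each library left out in turn, but 52 lost it without D180 and 53 without Y2, and 21, 22 and 2 without D0, D7 and D28. Differences that changed sign on the deposited values were those of IGF2BP2 (0.13), LIN28B (0.16), NDUFB9 (0.55), RPS16 (1.00), RPS28 (1.18), TMSB4X (1.07), CD4 (1.38), RFXANK (0.52), HSPA8 (0.95), TUBB1 (0.51) and TCONS_00140781 (0.25). With the 10 highest mRNAs removed they were LIN28B (0.0079), RPS16 (0.23), RPS28 (0.41), TMSB4X (0.30), CD4 (0.72), HSPA8 (0.20) and TCONS_00140781 (0.072), and this scaling gives no value for the removed HBB, TPT1 and FTL. Without D0 CD3E was -0.058, and CD4 was 0.14 without D28 and 0.019 without Y2.

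Pigs with the same number at different ages are different animals, and the correlations of their deviations, -0.0930 to 0.0609 for mRNAs and -0.232 to 0.141 for lncRNAs, do not pair them. With the replicate block limma called 640 mRNAs higher and 1127 lower, and 26 and 33 lncRNAs. The 2 pigs per age limit every estimate, and differences between ages of one period enter the error of the comparison.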

Other observations

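Among the 10 most abundant mRNAs, 2 without a symbol in the tables used here changed between libraries in a way that the periods do not describe. ENSSSCG00000034995 had 258101 and 271831 scaled FPKM at D0, 0 and 0.0269 at D7, 150499 and 109118 at D28, 24977 and 17736 at D180, and 62528 and 0 at Y2. ENSSSCG00000038379 was near 0 where the former was high, and had 68719 and 58623 at D7 and 11698 in Y2 pig 2. The difference between the periods was -0.50 ± 4.74 (limma, adjusted p = 0.957) for the former and -1.98 ± 4.29 (adjusted p = 0.787) for the latter.

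Other abundant mRNAs without a symbol followed the red cell list in part. ENSSSCG00000014727 had 16339, 47069 and 68818 in the suckling period (lowest, median and highest) and 2484, 2010.1, 6537 and 7909 in the late period (-3.33 ± 0.61, adjusted p = 0.00506), with no overlap on either scale. ENSSSCG00000007978 had 257739.9, 527599.7 and 660665 against 30669, 48579, 175160.0 and 172320.3 (-2.45 ± 0.83, adjusted p = 0.0641), which did not overlap but was not called. ENSSSCG00000019556 had 37718 to 59203 and 48919 to 60657, which overlapped on the scaled values, and its difference was 1.99 on the deposited values.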
